A study of Mus musculus with 20 samples.

Results

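The heat shock and chaperone genes of mouse hindlimb muscle are described here across a muscle knockout of the clock gene Bmal1 and 6 weeks of treadmill training. Members were taken by symbol: the small heat shock proteins (Hspb), HSP70 and HSP110 (Hspa, Hsph), HSP90 (Hsp90), the mitochondrial chaperonin (Hspd, Hspe), the J-domain co-chaperones (Dnaja, Dnajb, Dnajc), the BAG co-chaperones (Bag) and the cytosolic chaperonin CCT (Cct), each followed by a number. Of 84 symbols that matched, 77 reached 1 CPM (a gene's counts as parts of 1000000 counts of its library) in at least 5 of 20 libraries and were kept. These 77 stand among 14361 genes tested and 21844 genes in the deposited table. The 7 symbols left out were Hspb9, Cct6b, Dnajc6, Dnajb13, Cct8l1, Dnajb7 and Dnajb3, none of which reached 1 CPM in any library. The kept members were 7 small heat shock proteins, 14 HSP70 and HSP110 genes, 3 HSP90 genes, 3 genes of the mitochondrial chaperonin, 4 Dnaja, 9 Dnajb and 24 Dnajc genes, 7 CCT subunits and 6 BAG genes. These classes follow the symbol alone. They count Hspb11, a protein of cilia transport, with the small heat shock proteins. Tcp1, a CCT subunit whose symbol the rule does not take, was read with the co-chaperones instead.

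All mice carried the genotype labelled Cre+:iMSBmal1 fl/fl, in which floxed Bmal1 alleles are combined with a Cre recombinase that, in the published line, is confined to skeletal muscle fibres and switched on in the adult, so that other cells of the tissue keep the gene. They were given vehicle, or were labelled iMSBmal1KO, and either had no exercise or trained on a treadmill daily for 6 weeks, which gives 4 groups of 5 libraries: vehicle sedentary, knockout sedentary, vehicle trained and knockout trained. The controls of both comparisons therefore carry the same Cre and floxed alleles as the libraries labelled knockout. Any effect of a treatment given in place of vehicle cannot be told apart from that of the knockout in these groups. The labels name both gastrocnemius and tibialis anterior as the tissue, and give both 48 and 47 hours as the time of collection after the last bout. They give no age or sex, and do not say that each library came from its own animal, so the p-values measure the spread between these samples.

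Total counts per library lay between 10610333 and 19153527. Knockout-trained libraries 1 and 4, and libraries 3 and 5, differed by little more than sampling noise, and each pair was counted as 1 sample, so that this group has n = 3. Vehicle-trained library 2 stood apart from all others, and the counts of members called are given with all 18 samples and without it. For single genes, some changes are given from the fit with all 18 samples alone. The targeted gene, listed under its symbol Arntl, did not have lower counts under the knockout label. It lay between 5.68 and 7.93 CPM in vehicle sedentary and between 11 and 18.9 CPM in knockout sedentary libraries, at 6.32 to 6.68 CPM in 4 vehicle-trained libraries but 132 CPM in library 2, and between 8.04 and 16.1 CPM in knockout-trained samples. A count over the whole gene does not show whether the floxed part was lost, so "knockout" stands below for the label. Genes that define skeletal muscle fibre summed to between 61264 and 78164 CPM in every sample but vehicle-trained library 2, where they summed to 47641 CPM. In bulk tissue, fewer cells of a type and less RNA per cell cannot be told apart.

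Chaperones bind unfolded or damaged proteins and help them to fold, to reassemble or to be handed on for degradation. HSP70 proteins work in cycles of ATP hydrolysis that are driven by J-domain proteins, the DNAJ families, and by nucleotide exchange factors such as HSP110 and the BAG proteins. HSP90 completes the folding of kinases and receptors, while CCT folds actin and tubulin in a closed chamber. Small heat shock proteins hold unfolding proteins without using ATP, and in muscle several of them sit at the Z-disc and the contractile filaments, where mechanical load unfolds structural proteins. Many of these genes are switched on by heat shock factor 1 through heat shock elements in their promoters, and the endoplasmic reticulum members by the unfolded protein response.

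Promoter sequence was available from RefSeq (assembly GRCm38.p6) for 62 of the 77 members, as 81 windows of 250 bases before to 50 bases after a start site. They were searched for the E-box CACGTG, to which CLOCK and BMAL1 bind, and for the core of the heat shock element, TTCNNGAA or GAANNTTC, on both strands. Both motifs read the same on either strand, overlapping matches were counted separately, and the 2 motifs did not overlap in any window printed. The E-box stood in 7 member windows (8.64%), of 6 genes: Dnajb9, Dnajc1, Dnajc16, Dnajc8, Hspd1 and Hsph1. Of all 32851 windows, 7.15% held it, and among the windows of tested genes 9.72%. The heat shock element core stood in 21 member windows (25.9%), of 19 genes, against 15.1% of all windows and 11.8% of those of tested genes. The windows printed here belong to some of the members whose values are described first below and, for Hspe1, to the stretch it shares with Hspd1. Each runs 5′ to 3′ on the gene's strand, and capitals mark the E-box in Dnajb9 and heat shock element cores in the others.
Dnajc25, chr4:59002943-59003242, plus strand: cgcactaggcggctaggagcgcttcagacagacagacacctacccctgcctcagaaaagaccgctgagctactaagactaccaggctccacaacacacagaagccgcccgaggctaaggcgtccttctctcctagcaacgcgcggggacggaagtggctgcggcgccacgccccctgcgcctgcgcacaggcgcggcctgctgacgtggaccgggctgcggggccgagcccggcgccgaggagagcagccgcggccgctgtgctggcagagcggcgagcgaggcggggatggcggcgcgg
Dnajb9, chr12:44210019-44210318, minus strand: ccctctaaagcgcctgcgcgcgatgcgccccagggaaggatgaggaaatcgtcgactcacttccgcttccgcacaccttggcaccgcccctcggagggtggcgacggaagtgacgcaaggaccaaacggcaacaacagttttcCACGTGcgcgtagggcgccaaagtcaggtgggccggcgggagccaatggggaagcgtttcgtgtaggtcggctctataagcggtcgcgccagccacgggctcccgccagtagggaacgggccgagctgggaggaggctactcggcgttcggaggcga
Hspb3, chr13:113663627-113663926, minus strand: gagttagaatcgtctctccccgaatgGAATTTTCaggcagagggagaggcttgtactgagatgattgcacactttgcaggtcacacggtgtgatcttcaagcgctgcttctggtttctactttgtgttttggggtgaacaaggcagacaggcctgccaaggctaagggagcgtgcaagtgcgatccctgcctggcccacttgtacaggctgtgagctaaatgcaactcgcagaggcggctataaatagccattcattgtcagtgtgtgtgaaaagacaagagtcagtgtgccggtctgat
Hspb8, chr5:116422815-116423114, minus strand: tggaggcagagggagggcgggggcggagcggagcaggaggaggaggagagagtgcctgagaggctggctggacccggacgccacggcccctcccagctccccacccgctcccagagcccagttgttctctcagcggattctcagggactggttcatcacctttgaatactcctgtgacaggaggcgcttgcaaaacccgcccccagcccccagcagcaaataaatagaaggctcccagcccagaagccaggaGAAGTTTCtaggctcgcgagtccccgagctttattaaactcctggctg
Hspe1, chr1:55087898-55088197, plus strand: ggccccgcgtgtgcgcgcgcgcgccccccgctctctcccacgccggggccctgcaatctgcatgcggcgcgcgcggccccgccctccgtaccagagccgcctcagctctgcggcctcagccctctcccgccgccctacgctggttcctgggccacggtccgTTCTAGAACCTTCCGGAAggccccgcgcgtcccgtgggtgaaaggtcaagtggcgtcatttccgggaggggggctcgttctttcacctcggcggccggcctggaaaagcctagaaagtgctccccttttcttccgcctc
The Dnajc25 window held neither motif. The Dnajb9 window held the E-box with its first base 107 bases before the start site. Hspb3 had 1 heat shock element core, 224 bases before the start, and Hspb8 had 1, which begins 3 bases after the start. Hspe1 had 3 overlapping cores, which begin 89, 84 and 79 bases before its start. Dnajb6, described below with Dnajb9 but not printed, had heat shock element cores in its overlapping windows. They begin 46 and 41 bases before the start in the first window, and 127 and 122 bases before the start in the next. These matches are descriptions of the letters in the windows, and binding was not measured.

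Counted per kilobase of exon (mean CPM over the samples divided by the exon length of GENCODE M21), the members spanned a wide range of levels in this muscle. Hspb8, a small heat shock protein that works with BAG3 in clearing damaged filament proteins, was highest at 358 CPM per kb. It was followed by Hsp90ab1, the constitutive cytosolic HSP90, at 297, by Hspb6 at 239, by Hspb7 at 179 and by Hspa8, the constitutive HSC70, at 140 CPM per kb. The order thus held 3 small heat shock proteins among its first 4 genes. At the low end stood Hspb11 at 1.42, Hspa12a at 0.91 and Hspa4l, an HSP110 relative, at 0.72 CPM per kb. The stress-inducible HSP70 genes Hspa1a and Hspa1b were low as raw levels, at 8.68 to 19.6 CPM and 5.69 to 19.2 CPM over all samples, against 473 to 964 CPM for Hspa8. Of their sequence, 58.8% of the 50-base windows of Hspa1a also occur in Hspa1b, so reads may be split between them.

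The knockout comparison in sedentary muscle sets the libraries labelled knockout against vehicle without training. Dnajc25, a little-studied J-domain protein, was lower in every sedentary library labelled knockout. Small heat shock proteins Hspb3 and Hspb8 were higher and the J-domain genes Dnajb6 and Dnajb9 were lower, and these 4 were called once vehicle-trained library 2 was left out of the fit. By edgeR's quasi-likelihood test with Benjamini-Hochberg adjustment over all genes, 1 of the 77 members passed an adjusted p of 0.05 with all 18 samples, where 2.33% of all genes did. Leaving out vehicle-trained library 2, which belongs to neither group compared here but enters the shared estimate of the spread, 5 members passed, 2 higher and 3 lower, where 6.97% of all genes did. The share of members called is near that of all genes in both fits. The median log2 change of the members was 0.01 with all samples, and 0.01 over all tested genes.

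Dnajc25 was measured at 18.1, 19.6, 16.5, 17.7 and 17.2 CPM in the vehicle sedentary libraries and at 14.5, 13.8, 13.0, 13.9 and 12.1 CPM in the knockout sedentary ones. The groups did not overlap, with means of 17.8 ± 1.15 and 13.5 ± 0.931 CPM (SD, n = 5 each). The fitted log2 change was -0.46 (SE 0.103, adjusted p = 0.0185, edgeR). In trained muscle the vehicle libraries held 16.5, 21.8, 16.3, 18.6 and 17.98 CPM and the 3 knockout samples 13.8, 12.1 and 11.2 CPM, again without overlap. There the log2 change was -0.53 (SE 0.120, adjusted p = 0.0203, edgeR). Dnajc25 was the only member called in both knockout comparisons with all samples. The difference between the 2 knockout effects, the interaction, was -0.07 (SE 0.157, adjusted p = 0.916, edgeR), and 0.03 (SE 0.117) without vehicle-trained library 2. Leaving out 1 sample ended the sedentary call in 5 cases, with vehicle sedentary library 1, 2 or 5 or knockout sedentary library 3 or 5, at adjusted p up to 0.0609. It ended the trained call without knockout-trained sample 2 or 3+5, at adjusted p up to 0.126. Of its 50-base windows, 7.35% occur in other annotated genes.

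**Figure D1:**
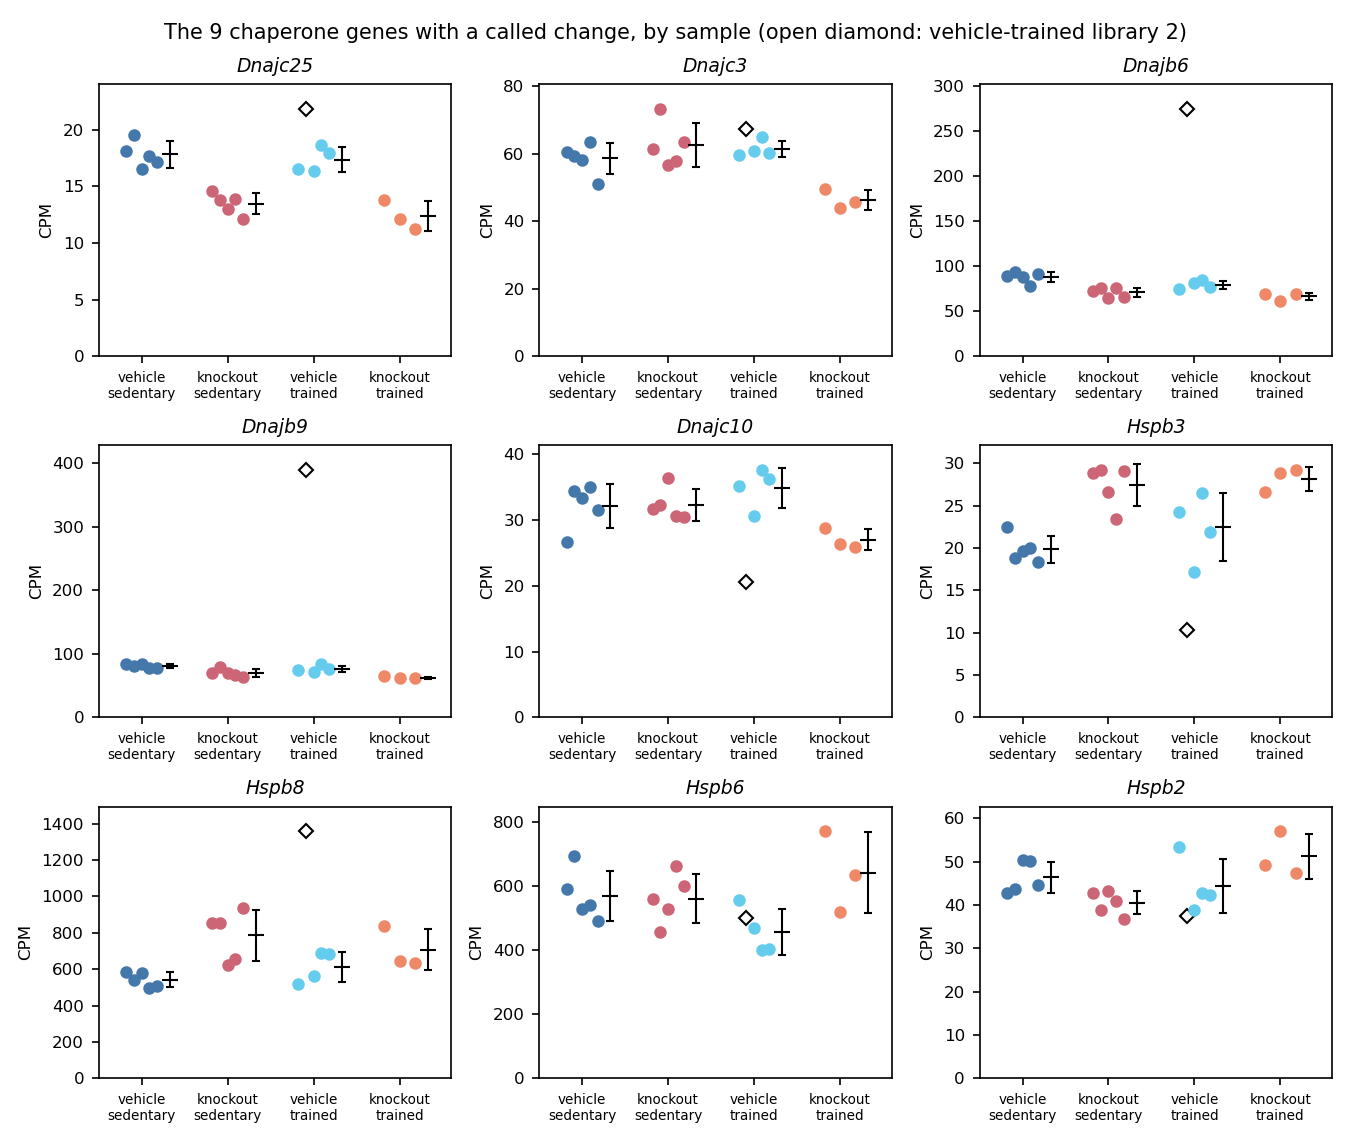
CPM (y axis, from 0) of the 9 heat shock and chaperone genes called in any comparison with or without vehicle-trained library 2, for each sample of the 4 groups (x axis). Dots are samples, the open diamond is vehicle-trained library 2, and bars give the mean ± SD of each group without that library; Dnajc25 lies lower in both groups labelled knockout, and the diamond lies far above all other samples in Dnajb6 and Dnajb9.

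The 2 other J-domain genes that were lower in sedentary knockout libraries work in different compartments. Dnajb6, a cytosolic and nuclear suppressor of protein aggregation whose mutations cause a muscle disease in people, lay at 89.3, 93.6, 88.1, 78.3 and 90.8 CPM in vehicle sedentary libraries and at 72.6, 75.8, 65.2, 75.2 and 65.8 CPM in knockout sedentary ones, without overlap. Its log2 change was -0.37 (SE 0.298, adjusted p = 0.882, edgeR) with all samples and -0.36 (SE 0.0812, adjusted p = 0.00696) without vehicle-trained library 2. The change is nearly the same in both fits, while its standard error is not. Dnajb9, an endoplasmic reticulum partner of the HSP70 protein BiP, lay at 83.8, 80.4, 84.3, 77.2 and 76.9 CPM against 69.1, 79.6, 69.4, 66.1 and 63.9 CPM, where knockout library 2 fell within the vehicle range. Its log2 change was -0.26 (SE 0.0684, adjusted p = 0.0231, edgeR) without vehicle-trained library 2, and -0.27 (adjusted p = 0.982) with it. Dnajb6 shares 21.0% of its 50-base windows with other annotated genes, and Dnajb9 5.50%.

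In trained muscle the same 2 genes were split between samples by vehicle-trained library 2. Dnajb6 held 74.2, 81.0, 84.6 and 77.1 CPM in 4 vehicle-trained libraries, 274 CPM in library 2, and 68.8, 61.8 and 68.7 CPM in the knockout samples. Its log2 change was -0.82 (adjusted p = 0.237, edgeR) with library 2 and -0.19 (adjusted p = 0.281) without it. Dnajb9 held 73.7, 71.9, 83.8 and 75.2 CPM, 389 CPM in library 2, and 64.4, 61.7 and 61.1 CPM in the knockout samples. All knockout samples lay below all vehicle ones for both genes. The Dnajb9 log2 change was -1.15 (adjusted p = 0.205) with library 2 and -0.22 (adjusted p = 0.114) without it, so neither gene passed in trained muscle in either fit.

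Of the 7 small heat shock proteins, 2 were called higher in sedentary knockout libraries without vehicle-trained library 2 and none lower, where 6.97% of all genes were called. Hspb3, which forms a muscle complex with HSPB2, lay at 22.4, 18.8, 19.6, 20.03 and 18.4 CPM in vehicle sedentary and at 28.8, 29.2, 26.6, 23.5 and 29.1 CPM in knockout sedentary libraries. No vehicle library reached the lowest knockout one, and the log2 change was 0.42 (SE 0.0985, adjusted p = 0.0104, edgeR), or 0.41 (SE 0.162, adjusted p = 0.321) with vehicle-trained library 2 in the fit. In trained muscle Hspb3 lay at 24.2, 17.1, 26.5 and 21.9 CPM, at 10.3 CPM in library 2, and at 26.6, 28.8 and 29.1 CPM in the knockout samples, whose lowest value was just above the highest vehicle value. The log2 change there was 0.41 (SE 0.117, adjusted p = 0.0355, edgeR) without library 2 and 0.56 (SE 0.184, adjusted p = 0.115) with it. Hspb3 was therefore called higher in both knockout comparisons in the fit without that library.

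Hspb8 lay at 583, 539, 580, 494 and 508 CPM in vehicle sedentary and at 856, 856, 621, 655 and 938 CPM in knockout sedentary libraries, without overlap. Its log2 change was 0.49 (SE 0.119, adjusted p = 0.0141, edgeR) without vehicle-trained library 2 and 0.48 (SE 0.222, adjusted p = 0.477) with it. In trained muscle it lay at 520, 562, 687 and 681 CPM, at 1359 CPM in library 2, and at 836, 647 and 635 CPM in the knockout samples, which overlapped the vehicle range. The log2 change there was -0.09 (adjusted p = 0.892, edgeR) with library 2 and 0.27 (adjusted p = 0.290) without it, so its sign rests on that library. Bag3, which recruits HSPB8 and HSP70 to damaged filaments, lay at 206 to 278 CPM in vehicle sedentary and 215 to 290 CPM in knockout sedentary libraries, and the groups overlapped.

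Markers of other cells and fibre types were read from lists beside these changes. The slow or oxidative fibre list (8 of 8 genes tested) summed to 2618 to 4251 CPM in vehicle sedentary and 1602 to 3426 CPM in knockout sedentary libraries. The satellite cell list (4 of 6 tested, Calcr and Chrdl2 too low) summed to 29.7 to 35.5 CPM and 36.3 to 43.7 CPM, without overlap, and its member Cdh15 was called higher in both knockout comparisons without vehicle-trained library 2. The macrophage list summed to 64.4 to 266 and 104 to 285 CPM, the adipocyte list to 225 to 470 and 309 to 388 CPM, the blood list to 370 to 864 and 348 to 843 CPM, the endothelial list to 166 to 248 and 208 to 252 CPM, and the Schwann cell list (Mag too low) to 58.1 to 161 and 65.0 to 116 CPM. These 5 overlapped between the groups. The part of satellite cells or fibre type in the changes of Dnajc25, Hspb3, Hspb8, Dnajb6 and Dnajb9 was not tested.

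Other members moved in sedentary muscle by sizes that did not pass the test over all genes. Groups did not overlap for 6 members, where 9.4% of all genes had groups that did not overlap: Cct5, Hspb3 and Hspb8 higher, Dnajb6, Dnajc25 and Dnajc27 lower. Cct5, a subunit of the chamber that folds actin and tubulin, had a log2 change of 0.24 (SE 0.101, adjusted p = 0.404, edgeR). Dnajc27 had -0.29 (SE 0.115, adjusted p = 0.333). Hspa2, an HSP70 best known from the testis, had -0.43 (SE 0.153, adjusted p = 0.228), from 6.48 to 9.59 CPM down to 5.55 to 8.28 CPM. Dnajb1, the heat-inducible HSP40, and Hsph1, the HSP110 that recharges HSP70, had changes of 0.39 (adjusted p = 0.387) and 0.40 (adjusted p = 0.482). By role, no Dnaja, HSP90, BAG, CCT, mitochondrial chaperonin or HSP70 and HSP110 member was called in either fit.

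The knockout comparison in trained muscle sets 3 samples labelled knockout against 5 labelled vehicle after training. Dnajc25 and Dnajc3 were lower, and without vehicle-trained library 2 Dnajc10 was lower too while Hspb3 and Hspb6 were higher. With all samples 2 of 77 members passed, both lower, where 3.29% of all genes passed (edgeR). Without vehicle-trained library 2, 5 members passed, 2 higher and 3 lower, where 8.66% of all genes did. The median log2 change of members was -0.05 with all samples and 0.05 without library 2, against -0.03 and 0.00 over all tested genes.

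All 3 of the lower genes encode J-domain proteins of the Dnajc family. Of its 24 members, 2 were called with all samples and 3 without library 2, where 3.29% and 8.66% of all genes were. Dnajc3 and Dnajc10 act inside the endoplasmic reticulum, but the reticulum members Hspa5 and Dnajb9 were not called here in either fit. Dnajc3, also known as P58IPK, binds unfolded proteins and restrains the stress kinase PERK. It lay at 59.6, 67.3, 60.9, 65.0 and 60.4 CPM in vehicle-trained libraries and at 49.5, 43.8 and 45.8 CPM in the knockout-trained samples, without overlap, and vehicle-trained library 2 (67.3 CPM) was close to the others of its group. The means were 62.6 ± 3.35 (SD, n = 5) and 46.3 ± 2.88 CPM (SD, n = 3), and the log2 change was -0.40 (SE 0.104, adjusted p = 0.0429, edgeR). That call was near the threshold: leaving out 1 sample ended it in 15 cases, at adjusted p up to 0.147, and it held at 0.0225 without library 2. In sedentary muscle Dnajc3 lay at 51.2 to 63.6 CPM in vehicle and 56.8 to 73.2 CPM in knockout libraries, which overlapped. The interaction for Dnajc3 was -0.44 (SE 0.136, adjusted p = 0.605, edgeR), so the difference between the sedentary and the trained knockout effect did not pass. Dnajc10, a disulfide reductase that aids degradation of misfolded proteins, lay at 35.2, 30.6, 37.6 and 36.2 CPM, at 20.6 CPM in library 2, and at 28.8, 26.3 and 25.9 CPM in knockout samples. Its log2 change was -0.30 (SE 0.0895, adjusted p = 0.0444, edgeR) without library 2 and -0.20 (adjusted p = 0.480) with it.

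Among the small heat shock proteins of trained muscle, Hspb6 (HSP20), a small heat shock protein of cardiac, smooth and skeletal muscle, lay at 556, 500, 468, 401 and 403 CPM in vehicle-trained libraries and at 771, 520 and 633 CPM in the knockout samples. The lowest knockout sample lay inside the vehicle range. The log2 change was 0.49 (SE 0.161, adjusted p = 0.114, edgeR) with all samples and 0.54 (SE 0.156, adjusted p = 0.0361) without library 2. In sedentary muscle Hspb6 lay at 491 to 695 and 455 to 661 CPM, which overlapped. Hspb7, a filamin-binding Z-disc protein, held 453, 326, 186 and 208 CPM, 1667 CPM in library 2, and 876, 312 and 419 CPM in the knockout samples. Its log2 change was -0.12 (SE 0.551, adjusted p = 0.938, edgeR) with library 2 and 0.89 (SE 0.303, adjusted p = 0.0776) without it, so that its sign also rests on that library. Cryab, the alpha-B crystallin neighbour of Hspb2, was listed among the co-chaperones rather than the members, and had log2 changes of 0.27 (adjusted p = 0.664) and 0.65 (adjusted p = 0.0507, edgeR) in the same fits.

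Fibre-type markers differed among the trained samples as well. The slow or oxidative fibre list summed to 1089 to 2676 CPM in the 4 vehicle-trained libraries, 904 CPM in library 2 and 2199 to 2629 CPM in the knockout-trained samples, and 1 of its 8 genes, Tnni1, was called higher in the knockout-trained samples without library 2. Myoglobin (Mb), on the muscle fibre list, was called higher in both fits. The satellite cell list summed to 22.9 to 30.5 CPM in the 4 vehicle libraries and 29.6 to 35.9 CPM in knockout samples. The macrophage list summed to 180 to 437 CPM in the 4 vehicle libraries, 477 CPM in library 2 and 63.7 to 362 CPM in knockout samples, with a median log2 change of -0.76, or -0.69 without library 2, and none of its 9 genes was called. The blood, adipocyte, Schwann cell and endothelial lists overlapped between the groups. The part of fibre type, satellite cells or macrophages in the values of Dnajc25, Dnajc3, Dnajc10, Hspb3, Hspb6 and Hspb7 was not tested. Groups did not overlap for 9 members, where 7.95% of all genes had groups that did not overlap: Dnaja3, Dnajc9 and Hspb3 higher, Dnajb4, Dnajb6, Dnajb9, Dnajc25, Dnajc3 and Hsp90b1 lower. Without vehicle-trained library 2 it was 13 members, 4 higher and 9 lower, where 14.5% of all genes did not overlap. Dnajb4, a DNAJ partner of HSP70 in muscle, had a log2 change of -0.34 (adjusted p = 0.162, edgeR) and Hspa1b one of -0.54 (adjusted p = 0.286).

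**Figure D2:**
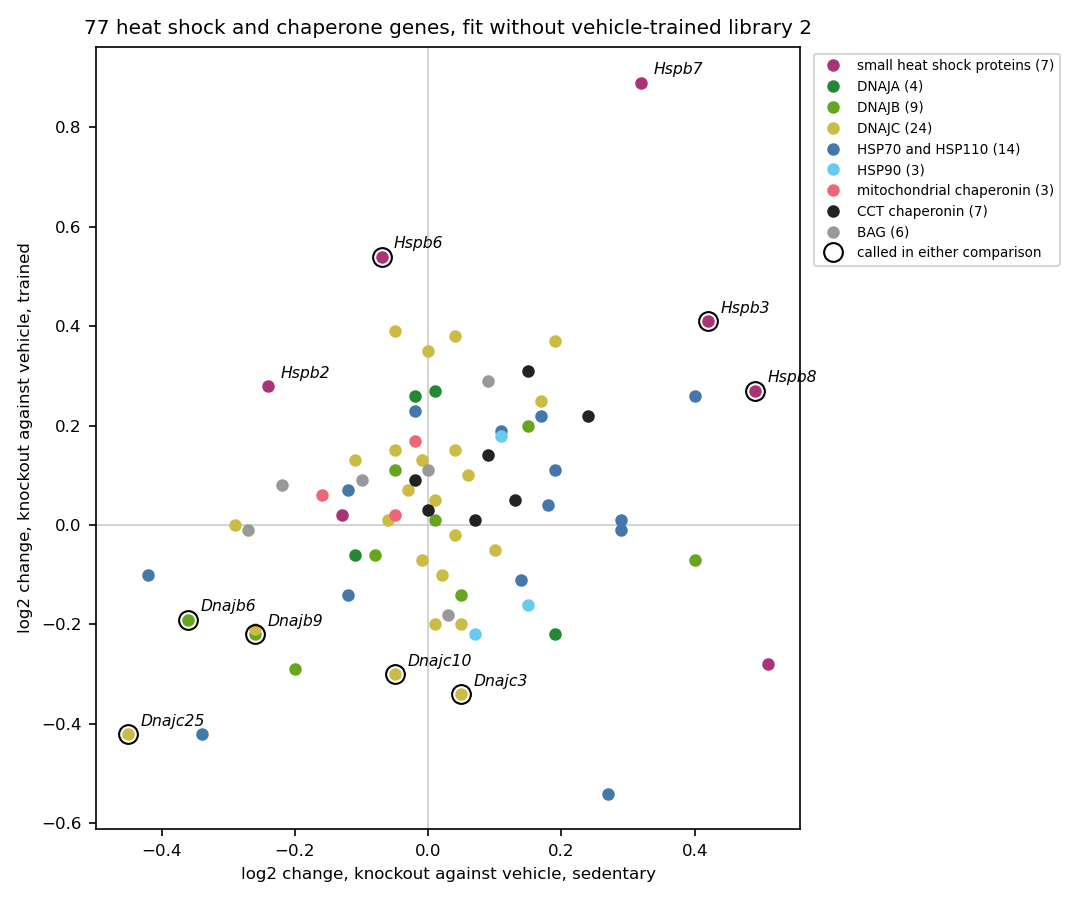
Fitted log2 change of each of the 77 genes between libraries labelled knockout and vehicle in sedentary muscle (x axis) and trained muscle (y axis), in the fit without vehicle-trained library 2, coloured by role. Black rings mark genes called in either comparison; Dnajc25 lies lower on both axes (-0.45 and -0.42) and Hspb3 higher on both (0.42 and 0.41), while Hspb6 and Dnajc3 lie near 0 on the x axis.

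The 2 knockout comparisons share no samples, though they share 1 estimate of the spread. Over both, without vehicle-trained library 2, 2 of the 77 genes were called in the same direction in each: Dnajc25 lower and Hspb3 higher. Hspb8, Dnajb6 and Dnajb9 were called in sedentary muscle alone, and Dnajc3, Dnajc10 and Hspb6 in trained muscle alone. By edgeR no interaction was called for any member. DESeq2 called none of these 8 genes, but gave an interaction adjusted p to only 37 of the 77 members, or 57 without library 2. None of the 8 genes is therefore shown to respond differently by training state.

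Training in vehicle muscle is the comparison of trained with sedentary vehicle libraries. No member passed the test, nor did any gene (0% of all genes, edgeR), with all samples or without vehicle-trained library 2 (0%). At an unadjusted p under 0.05 there were 9 members, 8 higher and 1 lower, where 15.2% of all genes passed that limit. DESeq2 and limma-trend also called no member. Without library 2 there were 7 members at unadjusted p under 0.05, where 13% of all genes were, and the median log2 change of the members went from 0.09 to -0.00. Hspb1 (HSP25), an actin-protecting small heat shock protein, had a log2 change of 0.90 (adjusted p = 0.310, edgeR) with library 2 and -0.00 (adjusted p = 0.995) without it. The groups did not overlap for 1 member, Dnajc27, lower at 41.4 to 63.2 CPM against 66.4 to 75.2 CPM, where 2.98% of all genes had groups that did not overlap. Without library 2 it was 3 members, all lower (Bag6, Dnajc27 and Dnajc5), where 4.91% of all genes did not overlap. Of the marker lists, the macrophage list stood at 64.4 to 266 CPM in sedentary and 180 to 437 CPM in the 4 other trained vehicle libraries (median log2 change 0.88 without library 2), and the adipocyte list at 225 to 470 and 226 to 1094 CPM (1.22). The slow or oxidative fibre list stood at 2618 to 4251 and 1089 to 2676 CPM (-0.63), and no gene of a marker list was called. The part of these cells and fibres in the changes on training was not tested.

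Hspb11, a protein of cilia transport, and Dnajc15 were among the 3 largest fitted rises of this comparison without library 2. Hspb11 held 2.09, 2.13, 1.83, 2.80 and 1.22 CPM in vehicle sedentary and 4.67, 3.90, 2.15, 5.64 and 2.78 CPM in vehicle-trained libraries, with overlap, and its log2 change was 0.96 (SE 0.275, adjusted p = 0.272, edgeR) with all samples. In the mitochondrial chaperonin, HSPD1 (HSP60) forms the folding chamber of the mitochondrial matrix and HSPE1 (HSP10) is its lid, and their genes lie head to head: the Hspe1 window printed above and an Hspd1 window are largely the same stretch read on opposite strands. Hspe1 held 41.6, 49.8, 54.4, 57.0 and 40.9 CPM in vehicle sedentary and 93.5, 128, 47.8, 70.0 and 54.2 CPM in vehicle-trained libraries, so the groups overlapped. The log2 change was 0.75 (SE 0.242, adjusted p = 0.272, edgeR), and 0.47 (adjusted p = 0.360) without library 2, which held the 128 CPM. In knockout muscle it held 52.5, 52.5, 52.8, 44.8 and 41.5 CPM before and 39.5, 83.4 and 65.7 CPM after training, with a log2 change of 0.53 (SE 0.275, adjusted p = 0.580). Hspd1 lay between 108 and 140 CPM in all 18 samples. Of the 50-base windows, 22.8% of those of Hspe1 and 42.1% of those of Hspd1 also occur in other annotated genes. Reads of both genes may thus be split with others.

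**Figure D3:**
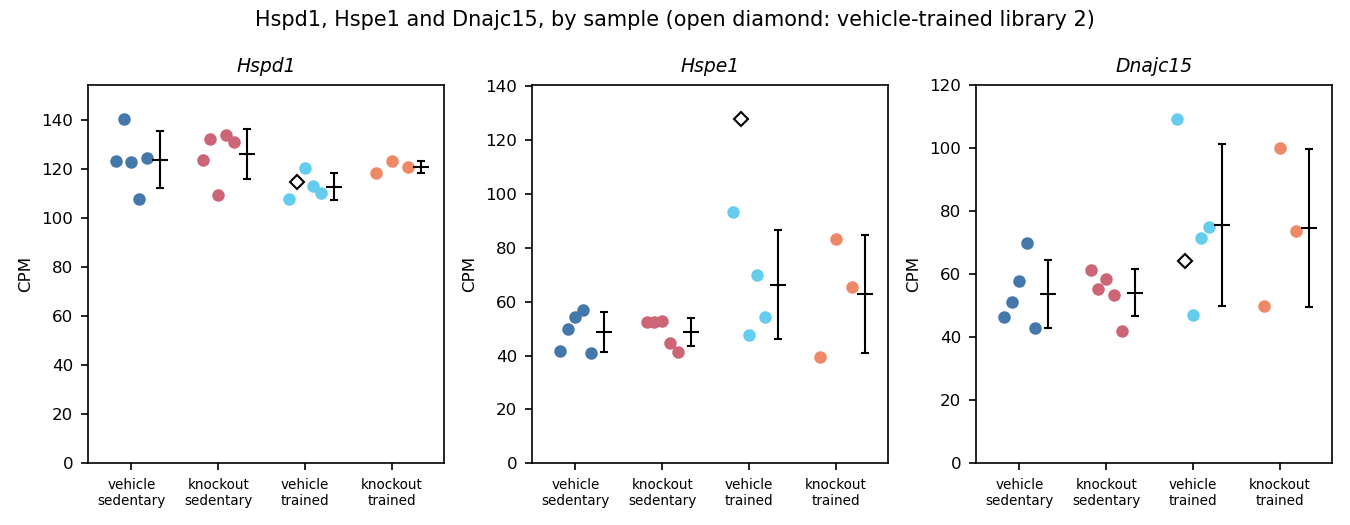
CPM (y axis, from 0) of the mitochondrial chaperonin genes Hspd1 and Hspe1 and of Dnajc15 in each sample of the 4 groups (x axis). Dots are samples, the open diamond is vehicle-trained library 2, and bars give the mean ± SD of each group without that library; the trained groups are widely spread for Hspe1 and Dnajc15, while Hspd1 stays between 108 and 140 CPM.

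Over 17 samples without vehicle-trained library 2, with group means removed, Pearson's r of log2 CPM was -0.26 between Hspd1 and Hspe1. It was 0.93 between Hspe1 and Dnajc15, a J-domain protein of the mitochondrial inner membrane, and 0.94 between Dnajc15 and Bag1, an HSP70 nucleotide exchange factor. The samples share depth and library preparation, so these values are descriptions. Dnajc15 lay at 42.9 to 69.9 CPM in vehicle sedentary and 46.9 to 109 CPM in vehicle-trained libraries, with a log2 change of 0.49 (adjusted p = 0.283, edgeR). The HSP90 genes had a median r of 0.62 among their 3 members and the 7 CCT subunits with a Cct symbol 0.56, against 0.13 over all pairs of the 77. Hspb6 and Hspb7 had an r of 0.92, Hspa8 and Hsp90ab1 0.88, and Bag3 and Hspb8 0.50.

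Training in knockout muscle compares the 3 knockout-trained samples with the 5 knockout-sedentary libraries. Hspb2, which pairs with HSPB3 in muscle and lies next to Cryab, held 42.8, 38.9, 43.3, 41.0 and 36.8 CPM before and 49.3, 57.0 and 47.3 CPM after training, without overlap. The log2 change was 0.48 (SE 0.110, adjusted p = 0.123, edgeR) with all samples and 0.49 (SE 0.0993, adjusted p = 0.0341) without vehicle-trained library 2. With all samples no member was called by edgeR (0% of all genes) or limma-trend, 1 was called by DESeq2 (Hspb2, where 1.69% of the genes with an adjusted p were), and 9 had an unadjusted p under 0.05, where 9.69% of all genes did. Without library 2, Hspb2 was the 1 member called, where 0.843% of all genes were, and 17 members had an unadjusted p under 0.05, where 17.5% of all genes did. DESeq2 without library 2 called 4 members, 3 higher and 1 lower, where 5.77% of the genes with an adjusted p were called, among them Hspb2 and Bag1 higher and Dnajc3 lower. By edgeR Hspb2 was also called without vehicle-trained library 1 (adjusted p = 0.0464) or knockout-trained sample 1+4 (0.0193), and leaving out 1 sample gave adjusted p up to 0.791. Hspb2 shares 24.4% of its 50-base windows with Cryab, which is read from the opposite strand, and strandedness is not stated, so reads of the 2 genes may be mixed.

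Marker lists differed over the same samples. From knockout sedentary to knockout trained, the adipocyte list went from 309 to 388 CPM to 379 to 721 CPM (median log2 change 1.26), the blood list from 348 to 843 CPM to 429 to 2892 CPM (0.98) and the slow or oxidative fibre list from 1602 to 3426 CPM to 2199 to 2629 CPM (0.56), each with overlap. The satellite cell list stood at 36.3 to 43.7 CPM before and 29.6 to 35.9 CPM after training, without overlap. The macrophage, Schwann cell, endothelial and muscle fibre lists overlapped, and no gene of any marker list was called by edgeR. Their part in the values of Hspb2 was not tested.

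In vehicle muscle Hspb2 did not show the same step, at 42.8 to 50.4 CPM in sedentary and 37.5 to 53.3 CPM in trained libraries. The knockout and vehicle values of Hspb2 stood in opposite order by training state: in sedentary muscle its log2 change was -0.25 (adjusted p = 0.316, edgeR) and in trained muscle 0.30 (adjusted p = 0.163). The interaction was 0.55 (SE 0.147, adjusted p = 0.605, edgeR), the lowest unadjusted p of a member in that test at 0.00154, and it did not pass. By edgeR no member passed the interaction with all samples (0% of all genes) or without library 2 (0%). DESeq2 without library 2 called Hspb2 (0.53, adjusted p = 0.0249), where it called 1.6% of the 5450 genes to which it gave an adjusted p. At an unadjusted p under 0.05 there were 6 members, where 7.5% of all genes had one, among them Hspb6 (0.56), Dnajc3 (-0.44) and Hspa1b (-0.80). With all samples limma-trend and DESeq2 called none, and DESeq2 gave an adjusted p to 37 of the members, Hspb2 not among them. Without library 2 the count at that limit was 10 members, where 11.4% of all genes passed it.

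Groups of the knockout training comparison did not overlap for 12 members, where 11.9% of all genes had groups that did not overlap. Hspb2 was higher, and 11 were lower: Dnaja1, Dnaja2, Dnajb1, Dnajb12, Dnajb4, Dnajc10, Dnajc2, Dnajc28, Dnajc3, Hspa13 and Hspa5. These ranges are of CPM over library totals, without a scaling factor. With library totals the median log2 change was -0.15 over all genes and -0.12 over the members. How many would lie lower after scaling was not counted. Hspa5 (BiP), the main HSP70 of the endoplasmic reticulum, lay at 226, 256, 212, 211 and 260 CPM before and 209, 148 and 183 CPM after training. Dnaja1, a cytosolic HSP40, had a log2 change of -0.31 (adjusted p = 0.440, edgeR) and Dnajc3 one of -0.29 (adjusted p = 0.324). Bag1 and Dnajc15 had changes of 0.45 (adjusted p = 0.256) and 0.62 (adjusted p = 0.351), with overlap between the groups. With scaling, the median log2 change of the members was 0.02, against -0.02 over all genes. The vehicle and knockout training comparisons and the 2 knockout comparisons use the same groups in turn, so the values of a gene across them are not independent.

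Vehicle-trained library 2 carried the widest differences among the members. Set against the average of the 4 other vehicle-trained libraries, 13 of 77 members were over 2-fold higher, where 11.2% of all genes were, and 6 were over 2-fold lower, where 23.2% of all genes were. In library 2, 28 members lay above all other 17 samples, where 24.6% of all genes did, and 23 lay below, where 35.6% did. The median log2 ratio of the members was 0.16 and that of all genes -0.20. With 1 library there is no replicate check of these values.

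The higher members of that library came from several roles. Hspb7 stood at 1667 CPM against 186 to 453 CPM in the other 4, or 5.68-fold their mean. Hspb1 stood at 398 against 73.9 to 85.6 CPM (5.01-fold) and Dnajb9 at 389 against 71.9 to 83.8 CPM (5.10-fold). Of the 50-base windows of Hspb1, 50.1% also occur in other annotated genes. Dnajb6, Hsp90ab1, Hspb8, Bag3 and Hspa5 were 3.46-, 2.58-, 2.22-, 2.29- and 2.09-fold the mean of the others. Dnajb2, a ubiquitin-binding J-domain protein, was 3.14-fold and Cct2 2.50-fold. Hspa1a and Hspa1b, the genes most strongly induced by heat in many cells, stood at 17.6 and 10.7 CPM, inside the ranges of 9.62 to 19.6 and 9.50 to 19.2 CPM of the others. The lower members were Hspa12a (3.82-fold lower), Hspa12b (3.20-fold), Dnajb14 (2.24-fold), Dnajc11 (2.19-fold), Hspb3 (2.16-fold) and Dnajc12 (2.13-fold). The muscle fibre markers were lowest in this library and the macrophage list highest, at 477 CPM, and their part in these values was not tested.

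**Figure D4:**
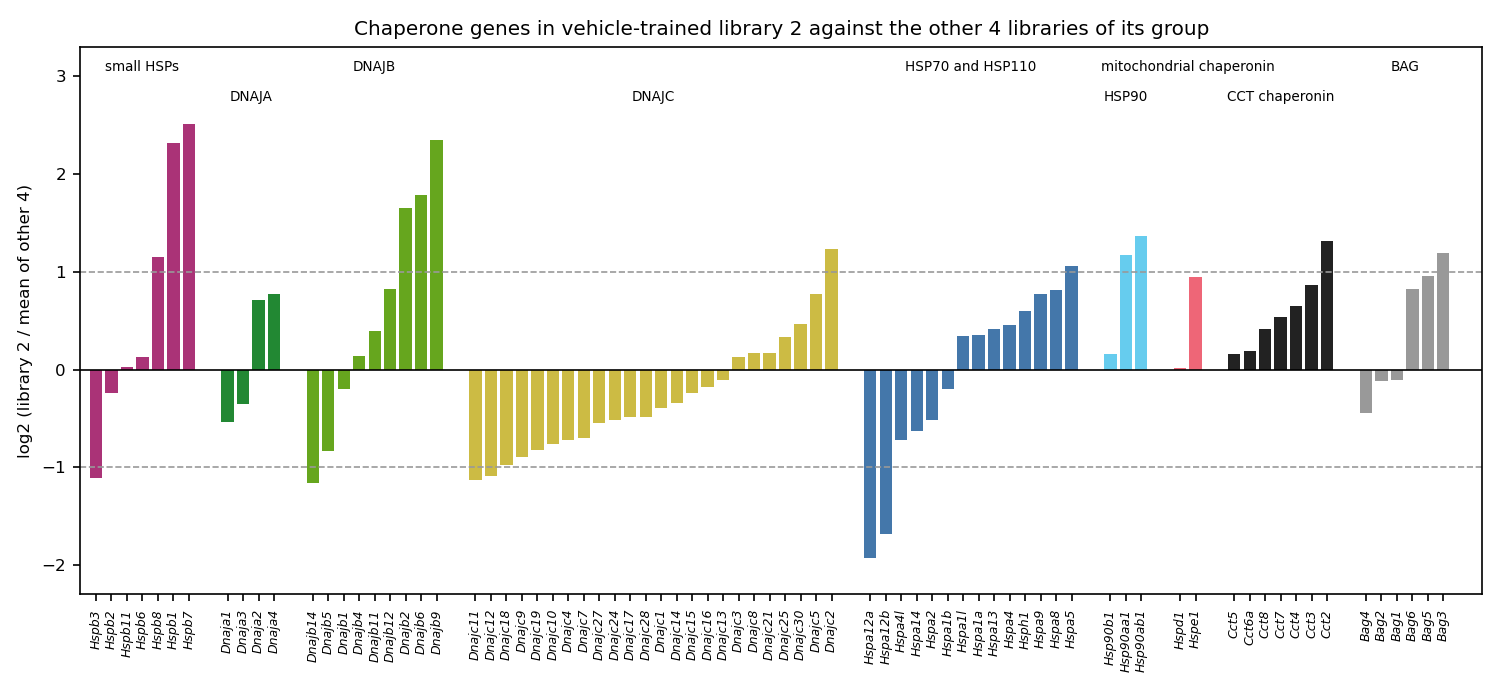
Log2 ratio (y axis) of CPM in vehicle-trained library 2 to the mean of the other 4 vehicle-trained libraries for the genes named on the x axis, ordered within roles; a pseudocount of 0.1 CPM was added to both. Dashed lines mark a 2-fold difference; Hspb7, Dnajb9 and Hspb1 stand highest at about 5-fold, and Hspa12a and Hspa12b lowest.

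Other genes of the folding and stress pathways were read from lists of known pathway members. The shares of all genes called, against which their counts stand, were 2.33% in sedentary and 3.29% in trained muscle, or 6.97% and 8.66% without library 2. Of 21 genes of endoplasmic reticulum folding and the unfolded protein response, 2 were lower and none higher in sedentary knockout libraries in both fits: Herpud1, which serves degradation of misfolded reticulum proteins, and Ddit3, the stress transcription factor CHOP. Herpud1 lay at 162 to 216 CPM in vehicle and 110 to 119 CPM in knockout sedentary libraries (log2 change -0.77, SE 0.102, adjusted p = 0.000179, edgeR). It was also lower in trained muscle (-0.74, adjusted p = 0.00176), at 95.3 to 106 against 147 to 193 CPM. Ddit3 had a log2 change of -0.60 (adjusted p = 0.00787) in sedentary muscle and, in trained muscle, -0.37 (adjusted p = 0.179), or -0.45 (adjusted p = 0.0132) without library 2. The median of the list was 0.01 in sedentary and -0.27 in trained muscle, or -0.13 without library 2, where the list summed to 2251 CPM against 1110 to 1334 CPM in the other 4.

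Of 13 genes of mitochondrial folding and proteolysis, Clpx, the unfoldase of the matrix protease, was higher in sedentary knockout libraries, at 134 to 156 against 72.3 to 86.5 CPM (log2 change 0.88, adjusted p = 0.0222, edgeR). In trained muscle Clpx had a change of 0.60 (adjusted p = 0.178), and 0.96 (adjusted p = 2.98e-06) without library 2. Leaving out 1 sample ended the sedentary Clpx call in 7 cases, all sedentary libraries, at adjusted p up to 0.0637. Grpel2, an exchange factor of mitochondrial HSP70, was higher in trained knockout samples (0.48, adjusted p = 0.0392). That call was lost in 9 cases of leaving out 1 sample, each knockout-trained one among them, at adjusted p up to 0.141, and also with no filter, with only the groups compared and with library totals. Clpp, the protease partner of Clpx, was called there without library 2 (0.45, adjusted p = 0.0328). Hspa9, the mitochondrial HSP70 that GRPEL proteins serve, lay at 368 to 469 CPM in vehicle and 365 to 419 CPM in knockout sedentary libraries, which overlapped.

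Of 27 heat shock factors and co-chaperones, 26 were tested, and in sedentary muscle none was called in either fit. In trained knockout samples Stub1 (CHIP), the ubiquitin ligase that binds HSP70, was higher (log2 change 0.59, adjusted p = 0.0243, edgeR) and Fkbp5, an HSP90 co-chaperone of steroid receptors, was lower (-1.52, adjusted p = 0.0438, or -0.90 and 0.00758 without library 2). Leaving out 1 sample ended the Fkbp5 call in 13 cases, every sedentary library and every knockout-trained sample, at adjusted p up to 0.166, as did no filter and only the groups compared. The Stub1 call was lost without knockout-trained sample 1+4 or 3+5, at adjusted p up to 0.1. Hsf1, the main heat shock factor, lay between 29.5 and 41.5 CPM in all samples but library 2, at 53.6 CPM. Prefoldin passes actin and tubulin to CCT. Of 7 genes listed, the prefoldin genes and Pdcl3, Pfdn2 was called higher in trained knockout samples without library 2 and none otherwise. Of 7 genes of chaperone-assisted autophagy, which works through BAG3 and HSPB8, none was called with all samples. Without library 2, Synpo2, the BAG3 partner at the Z-disc, was lower in sedentary knockout libraries (-0.34, adjusted p = 0.00769), and in trained ones Wipi1 was higher and Filip1 lower. None of these lists had a call in either training comparison or the interaction by edgeR.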

How the data were processed

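Members and lists were chosen with earlier results of these data known. RNA of mouse hindlimb muscle was sequenced in 20 libraries. The authors deposited estimated counts for each gene: the columns carry the name of another unit, but they sum to 10610333 to 19153527, and 72.0% of the values are whole. Per the submitters' processing notes, STAR 2.7.8a, Partek and DESeq2 were used, and mm10 and GRCm39 are both named. The gene annotation, any use of strand in counting and the step each build served are not given in the sources used here, so no gene coordinates are taken from the files.

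Counts were rounded, and CPM is the count over the library's sum. Levels and overlap between groups were read from these CPM, which carry no scaling factor. The 2 near-identical pairs of knockout-trained libraries, found among 190 pairs, were summed for tests and averaged for levels. Genes with CPM of at least 1 in at least 5 libraries were tested in R 4.3.3 with the quasi-likelihood test of edgeR 4.0.16 (TMM scaling, 4 group means, two-sided, Benjamini-Hochberg over 14361 genes, threshold 0.05). Standard errors come from the change and its F statistic. DESeq2 1.42.0 and limma-trend (limma 3.58.1) were alternatives, with other scaling, no filter, only the groups compared, a replicate block and each sample left out; the fits with DESeq2 or 20 separate libraries without vehicle-trained library 2, and library totals alone, were added after seeing the data. Replicate numbers did not pair the libraries (sensitivity part). Tested on simulated data with 200 changed genes among 14361, the fit recovered 144 in the sedentary comparison (14 of 50 at 1.5-fold) and 126 in the trained one (4 of 50 at 1.5-fold), with 9 false calls in each. The changed genes were drawn from those with a mean count over 50. Apart from the changes all samples shared the same mean per gene, so none stood apart as vehicle-trained library 2 does. Recovery in the real data can therefore differ.

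The naming rule took members called in either fit, the 3 largest rises and falls of each pairwise comparison, and anchor members. It also took the 5 highest and lowest levels, and list genes called. Of the genes it took, Cct8, Dnajb5, Dnajc4 and Dnajc24 were not called and are not described. Members without overlap between groups, those far apart in vehicle-trained library 2 and those most correlated were also named, chosen after their values were seen. Shared sequence was counted as 50-base windows of GENCODE M21 exons, and it is given above for some members only. Marker lists were blood, adipocyte, Schwann cell, endothelial, macrophage, satellite cell, muscle fibre and slow or oxidative fibre. Protein sequences were not used here. Many of the 77 members are counted but not named, and 1 that the naming rule took is not reported by name.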

Additional observations from a re-analysis of the deposited data

Results flagged for a closer look

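In 126 groups of 4 or 5 samples (42 genes taken by the naming rule, in 3 groups), 17 held a sample far from the others of its group. Chance gives about 1 in 20 groups, or 6.3, if groups are independent and genes are not chosen by their values. Here many genes were chosen by their values and the same libraries recur, so setting 17 against 6.3 is no test. The far sample was vehicle-trained library 2 in 13 of the 17 groups. It stood above its group for Hspb7 (1667 CPM), Hspb8 (1359 CPM), Hspb1 (398 CPM), Dnajb9 (389 CPM), Dnajb6 (274 CPM), Hsp90ab1 (2008 CPM), Hsp90aa1 (109 CPM), Hspa5 (383 CPM), Hspa9 (585 CPM), Bag3 (448 CPM), Cct2 (180 CPM) and Dnaja4 (109 CPM), and below it for Hspa12b (5.28 CPM). The other 4 were in other libraries. Cct4 was low at 80.6 CPM and Hspa2 low at 6.48 CPM in vehicle sedentary library 5, Dnajc17 was high at 4.87 CPM in vehicle sedentary library 1, and Hspa1b was high at 19.2 CPM in vehicle-trained library 1.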

How the results depend on the processing

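Over 51 log2 changes printed above and 1474 alternatives to them, 1322 kept direction and side of the threshold, 65 lost the call, 67 gained one and 20 changed sign. Alternatives with no adjusted p, as for the Hspb2 interaction by DESeq2 with all samples, were counted as not called. The count of members called in the sedentary knockout comparison (1) became 6 with only the groups compared, 0 with library totals and no scaling factor, and, without vehicle-trained library 2, 5, or 6 by DESeq2 and 7 with 20 separate libraries; leaving out 1 sample gave 0 to 5. In the trained knockout comparison (2) it became 1 with no filter, 0 with only the groups compared, 6 with 20 separate libraries, and, without library 2, 5, or 8 by DESeq2 and 11 with 20 separate libraries; leaving out 1 sample gave 0 to 5. In the training comparison of knockout muscle (0) DESeq2 and 20 separate libraries each gave 1 and, without library 2, each gave 4; leaving out 1 sample gave 0 to 3, the 3 without knockout-trained sample 1+4. The interaction (0) gave 1, Hspb2, by DESeq2 without library 2. Signs changed for Hspb7 in trained knockout samples (-0.12 to 0.34 and 0.34 by limma-trend at pseudocounts of 1 and 0.1, 0.00 with 20 separate libraries, 0.32 with the replicate block, and, without library 2, 0.90 by DESeq2 and 0.97 with 20 separate libraries; leave-one-out -0.57 to 0.89, within it -0.34 without vehicle-trained library 4, positive also without knockout-trained sample 2 at 0.15 or 3+5 at 0.00). They changed for Hspb8 there (-0.09 to 0.01 and 0.01 by limma-trend, 0.00 with the block, 0.27 without library 2, then 0.27 by DESeq2 and 0.25 with 20 separate libraries; leave-one-out -0.21 to 0.27), for Hspb1 on training in vehicle muscle (0.90 to -0.00 without library 2 and -0.01 by DESeq2; leave-one-out -0.00 to 1.08) and for the Dnajc25 interaction (-0.07 to 0.03, 0.03 and 0.01 in the 3 fits without library 2; leave-one-out -0.11 to 0.03). The cause was not tested. Over all genes the calls rose from 334 to 1001 (sedentary) and from 473 to 1244 (trained) without library 2, to 537 and 907 by DESeq2, and were 1178 and 20 with only the groups compared; 20 separate libraries gave 1225 in the trained comparison. Library totals moved the median of all genes by -0.14 in the training comparison of knockout muscle and -0.10 in the interaction. Same-numbered libraries did not deviate together (30 pairs, median r 0.02, 11 over 0.1); a replicate block over 20 libraries called 1, 3, 0, 0 and 0 members in the 5 comparisons, with 336 and 980 of all genes in the knockout ones. Low counts, as for Hspb11, which lay under 6 CPM in every sample, and 3 knockout-trained samples limit the precision.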
